A study of Homo sapiens with 24 samples.

Results

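Interferon response genes were followed in TYUC-1 cells while 1 of 2 isoforms of the transcription factor p63 was induced. The 44 genes were taken by name as a list, which was chosen with earlier results of these data known. Of these, 43 had at least 10 counts summed over all libraries (IFI44L had 2), and 32 had enough counts to be tested among 15642 of the 28278 genes in the table. TYUC-1 is a human cancer cell line from a neuroendocrine carcinoma of the esophagus, grown here in suspension. It was used as an inducible TAp63 line (i-TAp63) and an inducible ΔNp63 line (i-DNp63), and whether each is 1 clone is not given in the sources used here. Doxycycline at 1 µg/ml was given for the last 1, 3 or 6 days of a course of 6 days and the solvent DMSO before that. Day 0 cells received DMSO for 6 days. Each of the 8 groups had 3 libraries, called biological replicates by the series. How their cultures were separated is not said, so a p-value covers only the spread seen between libraries. Titles and induction labels name p63 alone, but a treatment label lists EPZ-6438, which blocks EZH2, the enzyme of polycomb that methylates histones, with the same number of days as doxycycline. The effects of p63, of doxycycline and of the inhibitor, if it was used, cannot be told apart. Cells given doxycycline but lacking a construct were not analysed here.

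Interferons are secreted when a cell senses viral or misplaced nucleic acid. They bind receptors that act through the kinases JAK1 and TYK2 and factors such as STAT2 and IRF9, which bind the interferon-stimulated response element (ISRE) in the promoters of many of their target genes. The products block viral translation (IFIT proteins), degrade or sense viral RNA (OAS proteins, ISG20, IFIH1), hold virions at the membrane (BST2), stop viral entry (IFITM proteins) or tag proteins with the ubiquitin-like ISG15. The transcription factor p63 is best known for its role in squamous epithelium. Its TA isoform carries a transactivation domain that ΔN lacks.

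Promoter windows of 300 bases, 250 before the transcription start and 50 from it, were taken from RefSeq (GRCh38.p14), and 36 of the 44 genes had at least 1 window. Those without one were IFIT2, IFITM2, IRF7, MX2, OAS2, OASL, TRIM22 and USP18. The ISRE core, written GAAANNGAAA and searched on both strands, was present in 25 of these 36 genes (69.4%), against 4.38% of 27305 genes with windows. The gamma-activated sequence TTCNNNGAA was present in 12 of them (33.3%) against 9.38% of all, and it can overlap the ISRE core, as it does once in BST2. A p53-family motif, one decamer of the pair that p53 and p63 bind, was present in 2 of them (5.56%), IFIT3 and ISG15, against 8.06% of all. A match of letters describes the sequence and shows no binding, and 11 of the genes had several windows, any of which could hold the match. The 250 bases before the start are given for IFIT1 and IFI6, both called at ΔNp63 day 6, for ISG15, which names the family, and for BST2, the member with the highest level per length. Capitals mark the ISRE core on either strand.
IFIT1: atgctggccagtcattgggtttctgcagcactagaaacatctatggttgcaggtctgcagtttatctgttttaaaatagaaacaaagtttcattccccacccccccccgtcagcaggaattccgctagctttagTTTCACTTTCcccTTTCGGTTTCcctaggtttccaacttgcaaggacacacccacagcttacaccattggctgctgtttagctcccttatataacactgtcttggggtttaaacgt
IFI6: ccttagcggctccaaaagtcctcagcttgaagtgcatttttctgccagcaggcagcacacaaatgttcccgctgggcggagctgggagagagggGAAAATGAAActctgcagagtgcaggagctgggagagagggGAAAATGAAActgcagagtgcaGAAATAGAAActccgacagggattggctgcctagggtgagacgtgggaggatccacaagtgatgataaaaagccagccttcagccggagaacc
ISG15: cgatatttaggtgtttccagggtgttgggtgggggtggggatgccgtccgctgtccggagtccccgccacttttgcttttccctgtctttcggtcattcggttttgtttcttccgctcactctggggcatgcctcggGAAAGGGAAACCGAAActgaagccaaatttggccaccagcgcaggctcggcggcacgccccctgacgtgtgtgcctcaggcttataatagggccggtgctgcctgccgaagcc
BST2: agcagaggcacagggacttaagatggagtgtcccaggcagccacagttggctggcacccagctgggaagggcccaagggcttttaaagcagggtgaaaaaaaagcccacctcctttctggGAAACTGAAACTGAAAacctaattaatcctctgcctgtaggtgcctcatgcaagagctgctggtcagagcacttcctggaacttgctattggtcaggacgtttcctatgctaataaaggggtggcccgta
The stretch of IFIT1 lies at chr10:89392373-89392622 on the plus strand and that of IFI6 at chr1:27672193-27672442 on the minus strand. ISG15 is at chr1:1013247-1013496 on the plus strand and BST2 at chr19:17405631-17405880 on the minus strand. IFI6 held 3 separate cores and IFIT1 held 2, read on the opposite strand. The 2 cores of ISG15 overlap each other, and so do the 2 of BST2.

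The libraries held 1530847 to 22019974 counts, with a second lowest of 6375963. TP63 was induced from 2.93 ± 0.0361 CPM (counts scaled by library size; SD, n = 3) at day 0 to 655 ± 41.3 CPM at day 6 in the TAp63 line, and from 4.35 ± 0.517 to 926 ± 100 CPM in the ΔNp63 line. Epithelial keratin KRT8 lay between 265 and 634 CPM and the adhesion molecule EPCAM between 373 and 520 CPM in 23 of the libraries. The neuroendocrine marker synaptophysin (SYP) was low there, at 2.47 to 5.28 CPM. Replicate 3 of ΔNp63 day 1 stood apart, with the lowest total, 69.2 CPM of TP63 against 721 and 576 CPM in its group, and 1730 CPM of fetal globin HBG2 against at most 30.6 CPM elsewhere. Because it enters the spread of every comparison, results are given from a first fit of all 24 libraries, with no replicate number, and from a second fit that leaves this library out. The second fit also carries the replicate number, because same-numbered libraries of different groups deviated together once that library was left out. Where the replicate number alone, with all 24 libraries kept, already gave a member's call, that is said beside it.

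Interferon genes were hardly detectable in any library, while a part of their target genes was well expressed before induction. Of 22 interferon genes, 14 had 0 counts in all libraries, IFNB1 and IFNG among them, and all 22 together had 21 counts. Receptor and kinase genes were present: IFNAR1 averaged 52.1 CPM, IFNAR2 40.5 CPM, TYK2 144 CPM and JAK1 543 CPM over the 6 day 0 libraries. Among the members, levels were compared per kb of counted length, which includes introns. BST2, which tethers virions to the cell surface, was highest at 85.9 CPM per kb, with a range of 77.2 to 97.1 over the 6 libraries (231 ± 18 CPM; SD, n = 6). LGALS3BP, a secreted glycoprotein, followed at 76.6 CPM per kb with a range of 65.1 to 88.6, which overlaps that of BST2 (664 ± 82 CPM). IFITM3, a blocker of viral entry, stood at 27.1 CPM per kb (21.1 to 33.5) and overlapped IFITM2 at 20.6 CPM per kb (17.3 to 23.2). IFITM1, IFITM2 and IFITM3 are related genes that share sequence, so the split of fragments among them is uncertain.

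At the other end, 15 of the 43 members averaged under 1 CPM at day 0, IFIT1 at 0.431 ± 0.101 CPM and IFIT2 at 0.536 ± 0.262 CPM among them. The 12 members without a test were IFIT3, IFI44, IFI44L, MX1, MX2, OAS2, OASL, RSAD2, XAF1, TRIM22, SAMD9L and EPSTI1, several of which are among the strongest interferon targets in other cells. By contrast OAS3, an activator of the RNase L pathway, stood at 113 ± 8.45 CPM and STAT2 at 55.5 ± 7.21 CPM (n = 6). Between the lines at day 0, 0 of 32 members were called by edgeR, against 0.0128% of all genes tested. At an unadjusted p under 0.05 there were 0 too, and the share of all genes at that limit is not given here. In the fit with the replicate number and without the library that stood apart, 0 were called again, against 0.171%.

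**Figure D1:**
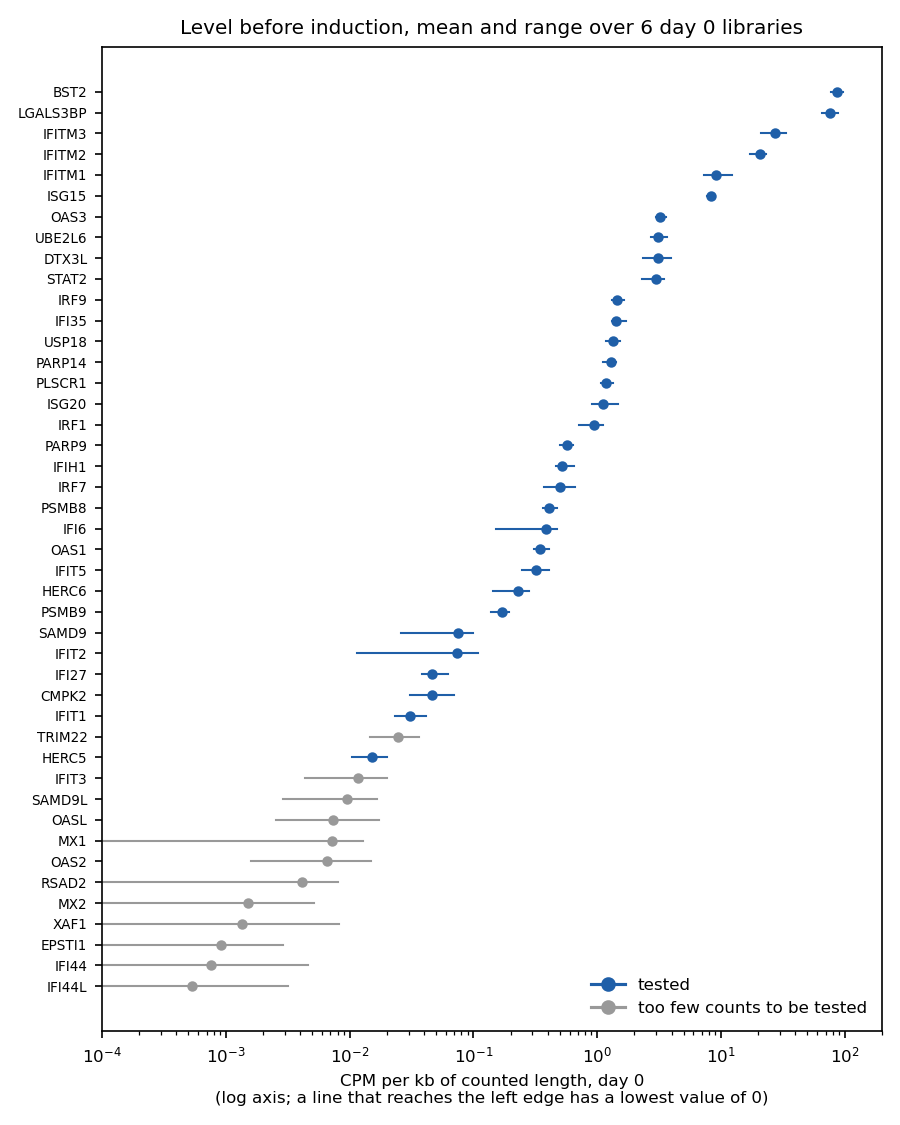
Level of each of the 44 genes before induction, in CPM per kb of counted length on a log axis, as the mean (point) and the range (line) over the 6 day 0 libraries of both lines. BST2 (85.9) and LGALS3BP (76.6) lead, and all but 1 of the genes that could not be tested (grey) lie below every tested gene (blue). Lengths of PSMB8, PSMB9, IRF9, IRF7 and IFI27 include copies on alternate contigs, so their values are too low.

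The IFIT family, whose proteins bind viral RNA that lacks the host's cap marks, held the largest changes of the tested members at ΔNp63 days 3 and 6 in the first fit. In the ΔNp63 line IFIT2 was measured at 0.0823, 0.681 and 0.788 CPM at day 0, at 1.16, 2.18 and 2.07 CPM at day 3, and at 1.64, 2.44 and 2.05 CPM at day 6. All day 3 and day 6 libraries lay above all day 0 libraries, of which replicate 1 held a single count. IFIT2 rose by 1.74 ± 0.433 on the log2 scale at day 3 (95% interval 0.84 to 2.64; edgeR adjusted p = 0.0352), and by 1.92 ± 0.44 at day 6 (adjusted p = 0.0205). Both changes also passed with the replicate number alone (edgeR adjusted p = 0.0136 and 0.00896) and in the second fit (0.000531 and 0.000327). Both calls rest on few counts, 25 in the day 0 group, 91 at day 3 and 68 at day 6. The day 3 call was lost without day 0 replicate 1 (adjusted p = 0.116), day 0 replicate 2 (0.0906), day 3 replicate 2 (0.17) or day 3 replicate 3 (0.141), and also when only the libraries compared were fitted (0.106). The day 6 call was lost without day 0 replicate 1 (0.0607) or 2 (0.0555), or without day 6 replicate 2 (0.107) or 3 (0.0578), with log2 changes of 1.47 to 2.3 when 1 library was left out. It was lost as well when only the libraries compared were fitted (0.0611).

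IFIT1 was measured in the ΔNp63 line at 0.576, 0.511 and 0.328 CPM at day 0, at 1.34, 1.12 and 1.38 CPM at day 3 and at 1.71, 1.73 and 1.11 CPM at day 6. Again no day 3 or day 6 library reached down to day 0. At day 6 IFIT1 rose by 1.70 ± 0.429 (edgeR adjusted p = 0.0395). That rise also passed with the replicate number alone (adjusted p = 0.0242) and in the second fit (1.74, adjusted p = 0.00155). The day 3 log2 change of IFIT1 was 1.43 ± 0.423 (adjusted p = 0.0954). It passed in the second fit (1.42, adjusted p = 0.00501) and with the replicate number alone (adjusted p = 0.0454). Leaving out any 1 of the 6 libraries compared ended the day 6 call: from day 0, the adjusted p was 0.0925 without replicate 1, 0.142 without replicate 2 and 0.215 without replicate 3. From day 6 it was 0.167, 0.15 and 0.0538 in the same order. With no filter on low counts it was 0.0713. In the TAp63 line IFIT1 had log2 changes of 1.36 ± 0.459 at day 3 and 0.99 ± 0.458 at day 6, and IFIT2 of 0.97 ± 0.457 and 1.23 ± 0.449. None of these passed in the first fit (adjusted p from 0.521 to 1). IFIT2 at day 6 passed in the fit with the replicate number and without the library that stood apart (1.30, adjusted p = 0.0485). IFIT5, the other tested member, had log2 changes of 0.38 ± 0.34 and 0.35 ± 0.347 at days 3 and 6 in the ΔNp63 line and was not called. IFIT3, too low for a test, had 6 counts in the 3 day 0 libraries of that line and 26 at day 3. The ratio was 3.88 with a 95% counting interval of 1.56 to 11.5. By day 6 the IFIT3 ratio was 2.49 (0.846 to 8.22). The TAp63 line gave ratios of 1.16 at day 3 (0.381 to 3.56) and 0.987 at day 6 (0.305 to 3.11).

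Of the IFI genes, IFI6, a mitochondrial and endoplasmic reticulum protein that limits cell death, was the one that moved most. Its ΔNp63 libraries stood at 2.88, 2.5 and 2.82 CPM at day 0, at 5.01, 7.42 and 5.33 CPM at day 3 and at 5.77, 8.63 and 8.53 CPM at day 6. The later days lay wholly above day 0, and at day 6 the rise was 1.48 ± 0.348 (edgeR adjusted p = 0.0246). That rise also passed with the replicate number alone (adjusted p = 0.00226) and in the second fit (1.49, adjusted p = 2.28e-06). The day 3 change of 1.12 ± 0.344 had an adjusted p of 0.112 and passed in the second fit (1.14, adjusted p = 6.98e-05) and with the replicate number alone (adjusted p = 0.0149). The day 6 call was lost without any 1 of day 0 replicates 1 (adjusted p = 0.0832), 2 (0.136) and 3 (0.0953) or of day 6 replicates 2 (0.109) and 3 (0.0933). In the TAp63 line IFI6 stood at 0.924, 2.90 and 2.07 CPM at day 0, 3.52, 5.76 and 5.65 CPM at day 3 and 4, 6.25 and 7.04 CPM at day 6. Those groups did not overlap either, and within each replicate number day 3 and day 6 were above day 0. The log2 changes of 1.26 ± 0.355 and 1.46 ± 0.353 did not pass in the first fit (adjusted p = 0.239 and 0.0905), but passed with the replicate number alone (0.0234 and 0.00694). At day 6 the change also passed once replicate 3 of ΔNp63 day 1 was left out (1.42, adjusted p = 0.0158), and in the second fit both days passed (1.23 and 1.43, adjusted p = 0.000354 and 2.82e-05).

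**Figure D2:**
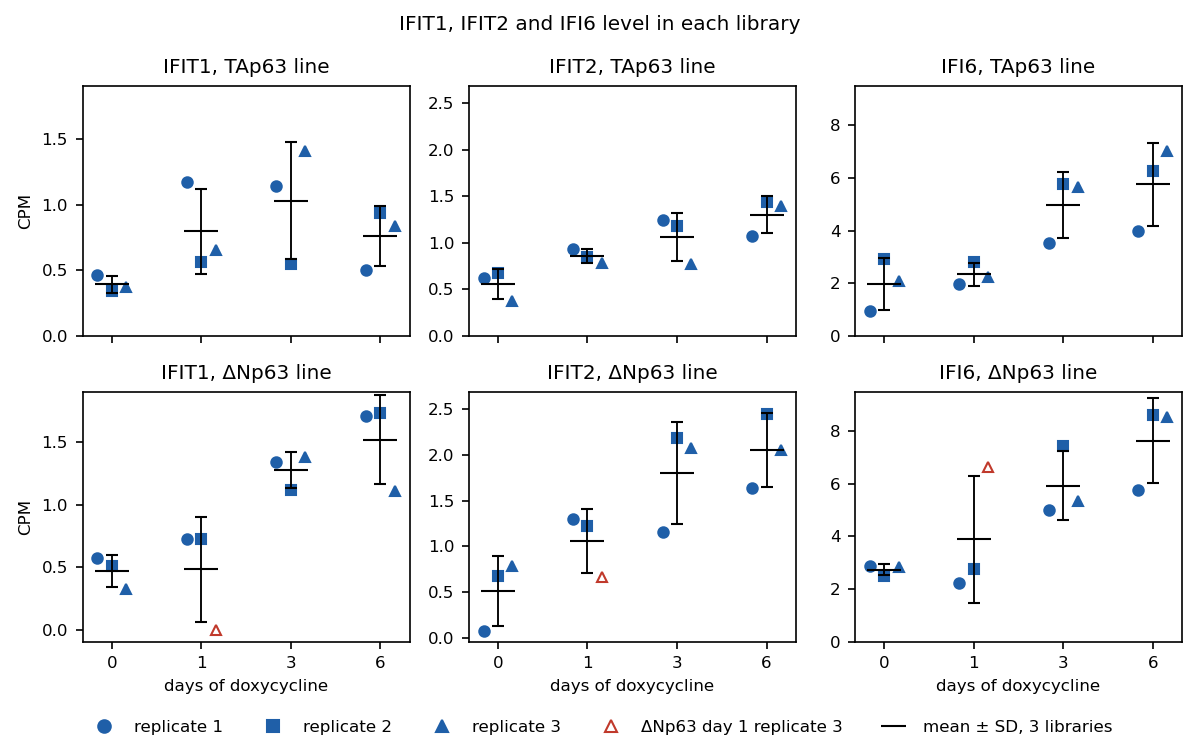
CPM of IFIT1, IFIT2 and IFI6 in every library by days of doxycycline, TAp63 line above and ΔNp63 line below, with symbols for the replicate number and black bars for the mean ± SD of 3 libraries. In the ΔNp63 line every day 3 and day 6 library lies above every day 0 library, and the open red triangle is the library that stood apart, with IFIT1 at 0.

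IFI35, an interferon-induced leucine zipper protein, changed less and at a higher level. It was at 10.9, 13.2 and 10.2 CPM in the ΔNp63 line at day 0, 15.8, 17 and 13.2 CPM at day 3, and 14.5, 17.1 and 15.2 CPM at day 6. Day 6 lay above day 0 throughout, and day 3 replicate 3 only reached the highest day 0 library. The log2 changes were 0.42 ± 0.162 and 0.45 ± 0.164 and did not pass in the first fit (adjusted p = 0.244 and 0.254), but passed with the replicate number alone (0.0298 and 0.0301) and in the second fit (0.00423 and 0.00651). The TAp63 change at day 6 passed in the second fit (0.39, adjusted p = 0.0417). Once the library that stood apart was left out, replicate 2 was the highest for IFI35 in 8 of 8 groups. IFI27 was not called in any comparison, with log2 changes of -0.32 ± 0.541 and -0.18 ± 0.526 at day 6 in the TAp63 and ΔNp63 lines. IFI44, which was not tested, had 1 count at day 0 and 9 at day 6 in the ΔNp63 line (ratio 12.2, counting interval 1.7 to 537). In the TAp63 line it had 0 counts at day 0 and 3 at day 6.

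Over all 32 tested members, 0 were called higher in the TAp63 line at days 1, 3 and 6 (0.121%, 0.428% and 0.428% of all genes tested were called higher). In the ΔNp63 line 0 were called at day 1 (0.0895% of all), 1 at day 3 (1.66%) and 3 at day 6 (1.62%), and 0 were called lower in any of the 6. At an unadjusted p under 0.05 there were 1, 7 and 6 members in the TAp63 line and 3, 11 and 9 in the ΔNp63 line. The share of all genes at that limit is not given here, so these counts are not particular to the members. In the second fit, with the replicate number and without the library that stood apart, 0, 4 and 5 members rose in the TAp63 line at days 1, 3 and 6, against 0.539%, 3.2% and 2.95% of 15783 genes. In the ΔNp63 line 0, 13 and 8 rose, against 0.551%, 12.2% and 8.14%. No member was called lower in either fit, where the second fit called 1.37% and 0.646% of all genes lower at TAp63 days 3 and 6, and 11.3% and 5.94% at ΔNp63 days 3 and 6. Members above 0 numbered 28 at TAp63 day 3 and 26 at ΔNp63 day 3, with median log2 changes of 0.209 and 0.264, where 48.6% and 47.8% of all genes tested were above 0. At day 6 the count was 23 in both lines, with medians of 0.165 and 0.163, where 46.6% and 48.7% of all genes were above 0. The count was also 23 between the uninduced lines at day 0 (ΔNp63 minus TAp63), with a median of 0.072. There 50.2% of all genes were above 0, so a count of 23 was reached without induction. At day 1 the count was 21 and 20 in the TAp63 and ΔNp63 lines, where 50.4% and 51.3% of all genes were above 0. These counts describe the 32 members with enough counts, of which IRF7 (lowest at day 3), IFI27 (TAp63 day 6) and ISG20 (ΔNp63 day 6) had the lowest values.

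**Figure D3:**
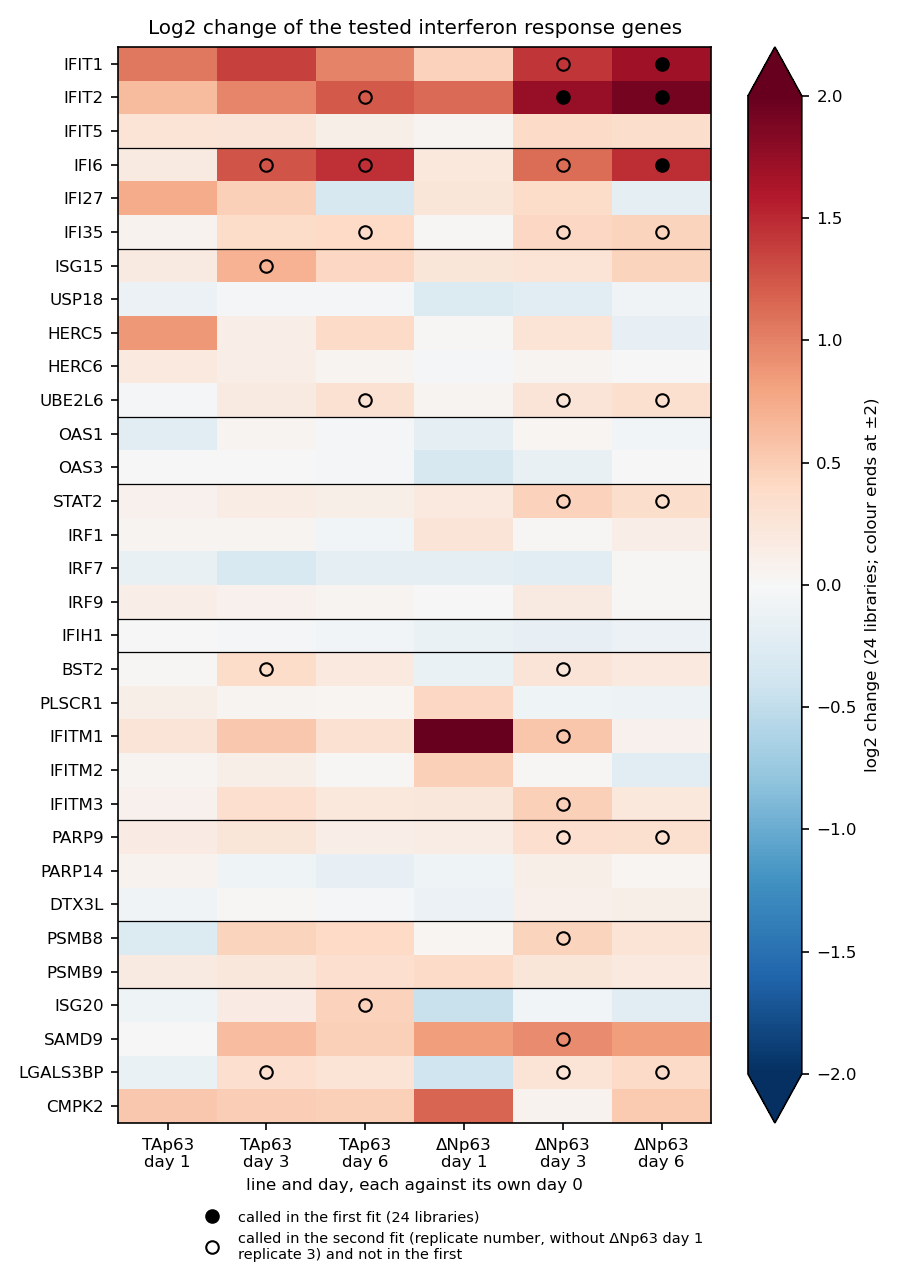
Log2 change of the 32 tested members against day 0 of the same line, one column per line and day, with genes grouped by role. Filled dots are calls in the first fit (IFIT2 at ΔNp63 day 3, IFIT1, IFIT2 and IFI6 at ΔNp63 day 6), and rings are members called in the second fit and not in the first. The darkest cell, IFITM1 at ΔNp63 day 1 (2.31), comes from that library.

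The genes of ISG15 conjugation split. ISG15 itself stood at 8.32, 8.03 and 8.39 CPM at day 0 of the TAp63 line and at 15.6, 13.2 and 11.3 CPM at day 3, with no overlap, and at 10.5, 11.1 and 11.6 CPM at day 6. Its day 3 log2 change of 0.70 ± 0.212 did not pass in the first fit (adjusted p = 0.327) and passed in the second fit (0.67, adjusted p = 0.00979). In the ΔNp63 line ISG15 moved by 0.28 ± 0.208 and 0.45 ± 0.211 and was called in neither fit. UBE2L6, the enzyme that loads ISG15 for transfer, rose in the second fit at TAp63 day 6 (0.33), ΔNp63 day 3 (0.26) and ΔNp63 day 6 (0.31; adjusted p = 0.0315, 0.0272 and 0.0157), from 52.8 ± 3.8 to 66.0 ± 2.96 CPM in the ΔNp63 line. USP18, which removes ISG15 and restrains the receptor, lay between -0.22 and -0.03 at days 3 and 6 and was not called. HERC5 and HERC6, ligases of the family, were not called either.

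Transcription factors of the pathway moved little. STAT2, the subunit that carries the activation domain of the interferon complex, was at 42.5, 54.6 and 56.4 CPM at day 0 of the ΔNp63 line and at 64.1, 71.6 and 75.2 CPM at day 3. The day 6 libraries gave 61.3, 61.4 and 73.0 CPM, and neither day overlapped day 0. Its log2 changes of 0.46 ± 0.144 and 0.35 ± 0.145 passed in the second fit (adjusted p = 0.000129 and 0.00363) and not in the first (0.124 and 0.39). With the replicate number alone day 3 passed (0.0125) and day 6 did not (0.0729). In the TAp63 line STAT2 went from 59.8 ± 4.1 to 65.2 ± 9.06 CPM at day 6 and was not called. IRF9, its DNA-binding partner, was at 14, 17.5 and 13.8 CPM at ΔNp63 day 0 and 16.4, 15.3 and 14.5 CPM at day 6, which overlap. IRF7, the factor that amplifies interferon production, was at 3.13, 3.46 and 2.95 CPM and then 3.74, 2.44 and 3.63 CPM. IRF1 was at 9.71, 9.26 and 6.5 CPM and then 9.51, 9.78 and 8.53 CPM. None of these 3 was called in any of the comparisons in either fit.

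OAS1 and OAS3, the tested members of the OAS and MX group, stayed within 0.15 of 0 on the log2 scale at days 3 and 6 of both lines and were not called. OAS3 was at 112, 126 and 105 CPM at day 0 of the ΔNp63 line and at 104, 117 and 121 CPM at day 6. IFIH1, the sensor of long double-stranded RNA, lay between -0.16 and -0.03 and was not called. Of the membrane proteins, BST2 was at 227, 208 and 232 CPM at day 0 of the TAp63 line and at 295, 268 and 293 CPM at day 3. The ΔNp63 libraries gave 261, 221 and 238 CPM at day 0 and 293, 269 and 302 CPM at day 3. The groups did not overlap in either line, and BST2 rose in the second fit by 0.36 and 0.26 (adjusted p = 0.0058 and 0.0167). At day 6 BST2 was not called, with a log2 change of 0.20 in each line. IFITM3 and IFITM1 rose in that fit at ΔNp63 day 3, by 0.47 and 0.57 (adjusted p = 0.00356 and 0.0117, against 0.354 and 0.824 in the first fit). With the replicate number alone IFITM3 passed (0.0488) and IFITM1 did not (0.657). IFITM2 and PLSCR1 were not called.

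PARP9, a partner of the ubiquitin ligase DTX3L, rose in the second fit at ΔNp63 day 3 (0.35, adjusted p = 0.0142) and day 6 (0.32, adjusted p = 0.0424), from 20.8 ± 2.65 to 26 ± 1.27 CPM. DTX3L and PARP14 were not called. PARP9 and DTX3L overlap by 447 bases on opposite strands, and strand was not used in the counting, so values there are uncertain. The immunoproteasome subunit PSMB8 rose in that fit at ΔNp63 day 3 (0.45, adjusted p = 0.013), from 13.3 ± 1.5 to 18 ± 0.655 CPM, and PSMB9 was not called. PSMB8 overlaps the antisense gene PSMB8-AS1, which held 43 counts to its 4908. Beta-2-microglobulin (B2M), which pairs with the heavy chains of MHC class I, went from 436 ± 18 to 1070 ± 126 CPM by day 6 in the ΔNp63 line.

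LGALS3BP was at 694, 768 and 565 CPM at day 0 of the ΔNp63 line, 872, 836 and 755 CPM at day 3 and 929, 909 and 807 CPM at day 6. Day 3 overlapped day 0 and day 6 did not. It rose in the second fit by 0.29 and 0.39 (adjusted p = 0.0102 and 0.0011), and by 0.34 at TAp63 day 3 (adjusted p = 0.011). SAMD9, an antiviral restriction factor, rose in that fit at ΔNp63 day 3 (0.95, adjusted p = 0.0229), from 1.42 ± 0.347 to 2.73 ± 0.625 CPM. CMPK2, a mitochondrial nucleotide kinase, was not called. TRIM22, a restriction factor outside the test, had 21 counts at day 0 and 7 at day 3 of the ΔNp63 line (ratio 0.299, counting interval 0.107 to 0.729). In the TAp63 line it had 29 counts at day 0 and 12 at day 6 (ratio 0.467, 0.217 to 0.943). RSAD2 and SAMD9L, also untested, had ratios of 6.77 (1.51 to 62.3) and 3.16 (1.07 to 11.2) at TAp63 day 6. At ΔNp63 day 6 these were 2.27 (0.747 to 7.59) and 1.66 (0.627 to 4.54).

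The lines were then compared by their response, as the TAp63 change minus the ΔNp63 change. In the first fit 0 of 32 members differed at day 1, day 3 and day 6, where 0%, 0.0448% and 0.0831% of all genes did. At an unadjusted p under 0.05 there were 1, 0 and 0, again without the share of all genes at that limit. For IFI6 the day 6 difference was -0.01 with an interval of -1.09 to 1.07, and for IFIT2 it was -0.69 with an interval of -2 to 0.63, so differences within these bounds were not resolved. In the second fit 0, 0 and 1 differed (0.0127%, 0.944% and 1.87% of all genes). That gene was ISG20, an exonuclease of single-stranded RNA. In the TAp63 line ISG20 was at 27.9, 19.1 and 19.4 CPM at day 0 and at 35.6, 27.6 and 26.9 CPM at day 6. The ΔNp63 libraries were at 30.7, 21.7 and 20.2 CPM and then at 25.3, 19.3 and 17.5 CPM. Replicate 1 was the highest in 8 of 8 groups, so the groups overlap, while within each replicate number the TAp63 line was higher at day 6 and the ΔNp63 line lower. The TAp63 rise passed in the second fit (0.45, adjusted p = 0.00743) and the ΔNp63 change did not (-0.22, adjusted p = 0.184). The difference was 0.67 ± 0.385 in the first fit (edgeR adjusted p = 1) and 0.66 ± 0.143 in the second fit (adjusted p = 0.0102).

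**Figure D4:**
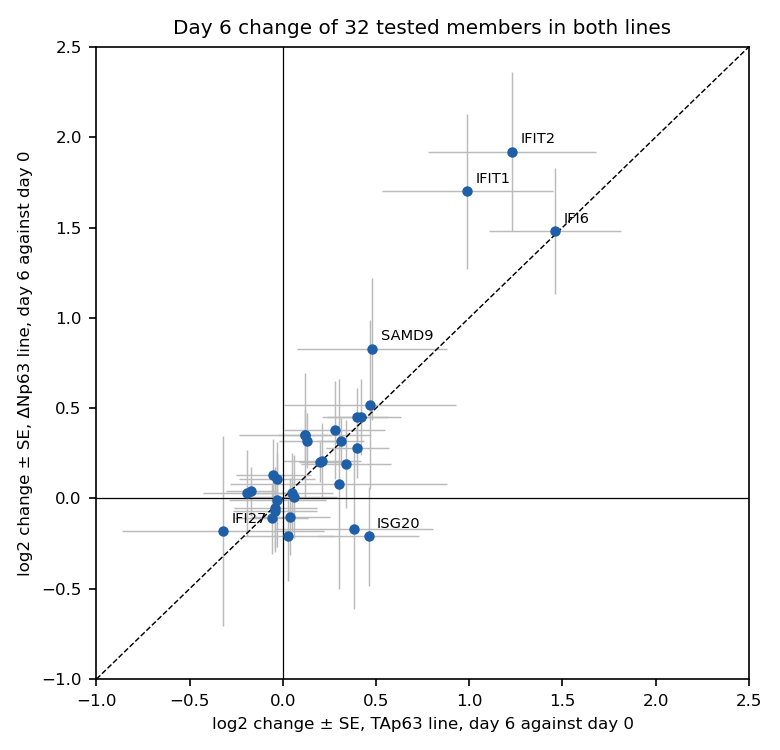
Day 6 log2 change ± SE of each of the 32 tested members in the TAp63 line (x axis) and the ΔNp63 line (y axis), each against its own day 0 in the first fit. IFIT1, IFIT2 and IFI6 lie farthest from 0 in both, IFI6 on the dashed line of equal change, and ISG20 is above 0 in one line (0.46) and below it in the other (-0.21).

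Other genes of the pathway gave 1 call in the first fit. Of 9 receptor and kinase genes 0 were called at any day. In the second fit JAK1 fell by 0.23 at TAp63 day 3 (adjusted p = 0.0262) and, in the ΔNp63 line, by 0.39 at day 3 and by 0.35 at day 6 (adjusted p = 4.8e-05 and 0.000222). The other 8, IFNAR1, IFNAR2, IFNGR1, IFNGR2, IFNLR1, IL10RB, JAK2 and TYK2, were not called at any day. Of 10 tested sensors and adaptors, DHX58 and IKBKE rose at ΔNp63 day 3 in that fit by 0.57 and 2.35, with CGAS and TICAM1 falling by 0.33 and by 0.26, and STING1 fell by 0.58 at day 6. The IKBKE value rests on few counts, 102 over all 24 libraries, from 0.0653 ± 0.0587 CPM at day 0 to 0.402 CPM at day 3. In the first fit its change was 2.44 ± 1.29 (edgeR adjusted p = 0.479). Of 7 negative regulators SOCS1, an inhibitor of the kinases, rose by 1.11 at ΔNp63 day 3 and 1.84 at day 6 in the second fit (adjusted p = 0.00161 and 2.91e-06). It went from 1.2 ± 0.31 CPM at day 0 to 4.4 ± 0.215 CPM at day 6, and in the first fit its day 6 change of 1.86 had an adjusted p of 0.0764. PTPN6, a phosphatase of the pathway, rose in that fit by 0.28 at TAp63 day 3 and by 0.36 and 0.31 at days 3 and 6 of the ΔNp63 line, and TRIM28 fell by 0.20 at ΔNp63 day 3. Of 36 tested interferon-stimulated genes outside the list, LAMP3 alone was called in the first fit, at ΔNp63 day 6 (0.65 ± 0.142, edgeR adjusted p = 0.0142; 16.5 ± 0.458 to 25.9 ± 4.34 CPM). In the second fit 8 rose and 3 fell at ΔNp63 day 3, where 12.2% of all genes were called higher and 11.3% lower. Those that rose were DDX60L, TRIM5, NMI, SP100, SP110, SP140L, BATF2 and LAMP3, and those that fell were IRF8, TRIM14 and LAP3. At ΔNp63 day 6 TRIM21, NMI, SP100 and LAMP3 rose, and at TAp63 day 3 PARP10 did.

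Replicate 3 of ΔNp63 day 1 departed from the other 23 libraries in these genes as well. Of 43 members it was above all of them in 13, below all of them in 13, and it had 0 counts in 9. The same counts over all genes are not given here, so these are not particular to the members. IFITM1 was at 167 CPM, against 8.21 to 20 CPM elsewhere, which gave the group a log2 change of 2.31 ± 0.603 (edgeR adjusted p = 0.145). Without that library and with the replicate number the value was 0.38. EPSTI1 was at 7.98 CPM and PLSCR1 at 77.1 CPM, both above all others, whereas OAS3 at 28.6 CPM and LGALS3BP at 199 CPM were below. Markers of red blood cell precursors summed to 2670 CPM there, against 0.955 to 46.6 CPM in the other libraries. The 11 immune markers summed to 488 CPM, below all other libraries, with LYZ (331 CPM) and CD14 (6.65 CPM) below their ranges and CD3E and MS4A1 at 0. PTPRC at 89.1 CPM, against 0.79 to 5.28 CPM, and ITGAM at 16.6 CPM, against 0.216 to 1.54 CPM, were above theirs.

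**Figure D5:**
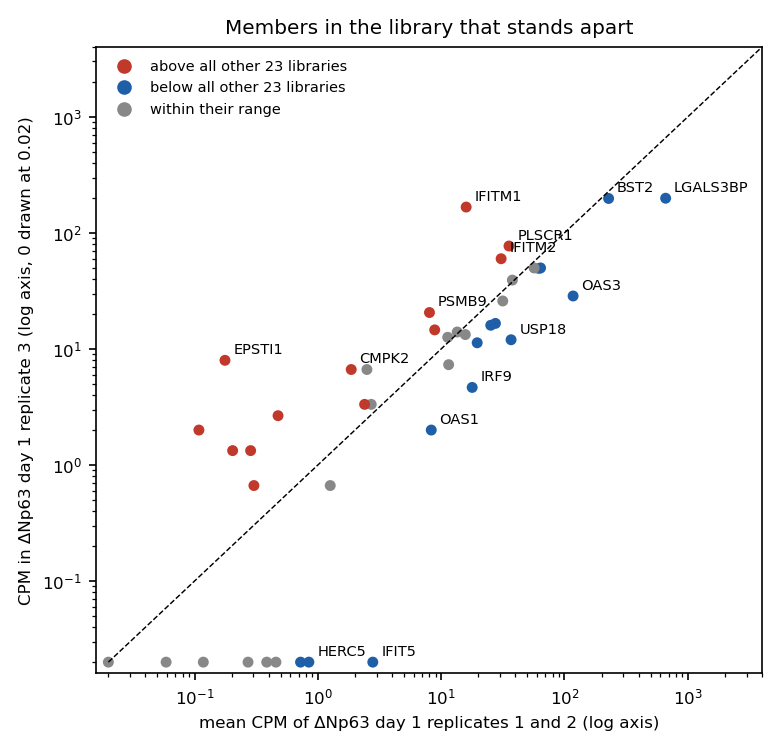
CPM of each of 43 members in replicate 3 of ΔNp63 day 1 (y axis) against the mean of replicates 1 and 2 of the same group (x axis), both on log axes with 0 drawn at the lower edge. Red points were above and blue points below all other 23 libraries, 13 of each, and the dashed line marks equal values.

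Markers of immune cells were measured beside them. The 11 genes summed to 528 to 1440 CPM in the other 23 libraries, of which LYZ alone gave 473 to 1400 CPM. LYZ, lysozyme, is also made by secretory epithelium. The sum in the ΔNp63 line was 942 to 1120 CPM at day 0, 662 to 873 CPM at day 3 and 528 to 683 CPM at day 6, lower on the days when IFIT1, IFIT2 and IFI6 were higher. In the TAp63 line it was 1120 to 1440 CPM at day 0 and 904 to 1320 CPM at day 6. Outside the library that stood apart, the macrophage markers CSF1R and CD14 lay at 14.3 to 39 and 11.3 to 20.6 CPM, CD3E reached at most 0.207 CPM and MS4A1 at most 0.328 CPM, and no marker of the list was at 0 counts throughout. Their part in the results was not tested. In these bulk samples, fewer cells with a transcript and less of it per cell cannot be told apart.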

How the data were processed

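Alignment to hg38 used HISAT2 2.1.0, per the submitters' processing notes, and counting used featureCounts 1.6.1; DESeq2 is named too, without a version. Per the file headers, the deposited raw counts per gene came from featureCounts 2.0.0, which counted paired fragments over whole hg38 refGene transcripts, introns included and without strand. The table was not normalized.

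The edgeR package 4.0.16 under R 4.3.3 fitted the counts (low counts removed by filterByExpr on groups, TMM factors, glmQLFit and glmQLFTest) in 1 model of 8 group means, the first fit, with 16 residual degrees of freedom. Benjamini-Hochberg adjustment ran over 15642 genes at a threshold of 0.05. CPM use TMM-adjusted library sizes, and SE is an approximate value, the log2 change over the root of F. Counting intervals are 95% and cover counting error only. Replicates differed beyond sampling noise (chi-square over degrees of freedom at least 5.35), so each library counted once. The method was checked on simulated counts.

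The second fit adds the replicate number and leaves out replicate 3 of ΔNp63 day 1 (15783 genes). The numbers come from the labels' titles. Same-numbered libraries of different groups correlated in their deviations at over 0.1 in 77 of 77 pairs without that library (lowest 0.179), and in 71 of 84 with it. Alternatives were RLE size factors, DESeq2 1.42.0, no filter, only the libraries compared, the replicate number, and leaving out each library. Values in every library were given for members called in either fit, for the 3 highest per kb, and for STAT2, IRF1, IRF7 and IRF9, in shorter form for members called only in the second fit. Members and lists were chosen with earlier results of these data known.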

Additional observations from a re-analysis of the deposited data

Results flagged for a closer look

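ISG20 differed between the lines in its day 6 response by a log2 difference of 0.66 (TAp63 change minus ΔNp63 change), by edgeR's test of the difference itself with the replicate number in the model and without replicate 3 of ΔNp63 day 1 (adjusted p = 0.0102). With the replicate number and all 24 libraries the difference was 0.67 (adjusted p = 0.146), and with neither step it was 0.67 (adjusted p = 1).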

How the results depend on the processing

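With all 24 libraries and no block 0, 0, 1 and 3 members were called at TAp63 days 3 and 6 and ΔNp63 days 3 and 6. DESeq2 called 1 at TAp63 day 3, 1 at TAp63 day 6, 1 at ΔNp63 day 1 and 3 at ΔNp63 day 3. The replicate block gave 1, 1 and 6 at TAp63 days 3 and 6 and ΔNp63 day 3. At ΔNp63 day 6 it called IFIT1 (edgeR adjusted p = 0.0242), IFIT2 (0.00896), IFI6 (0.00226) and IFI35 (0.0301). The replicate block without replicate 3 of ΔNp63 day 1 gave 4, 5, 13 and 8 at TAp63 days 3 and 6 and ΔNp63 days 3 and 6, and 1 for the difference between lines at day 6. Fitting only the libraries compared gave 2 at ΔNp63 day 3. At ΔNp63 day 6 it kept the calls of IFIT1 and IFI6 and lost that of IFIT2. A comparison not named for an alternative is not given here, which does not mean 0 calls. Shares of all genes were given above for the first and second fits only. At ΔNp63 day 3 the share called higher was 1.66% in the first fit and 12.2% in the second. Without such a share, the counts from the other alternatives cannot be read as a result about the members. Leaving out 1 library gave 0 to 1 at TAp63 day 6, 0 to 1 at ΔNp63 day 1, 0 to 4 at ΔNp63 day 3 (4 without ΔNp63 day 1 replicate 3) and 0 to 3 at ΔNp63 day 6. The cause was not tested. Of the recomputed values, 632 kept their side of the threshold or stayed within 1.5 times, 45 became calls, 22 lost a call, 26 counts moved by more, and 0 reversed. Members under 1 CPM rest on few counts, so their changes are the least certain, and 12 genes of the list have no test at this depth.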
